A study of Mus musculus with 12 samples.

Results

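Mouse embryonic fibroblasts carrying wild-type Atm (Atm-WT) were compared 72 h after irradiation with 4.32 Gy and without irradiation. The comparison rests on 6 of the 12 arrays of the series, 3 irradiated and 3 nonirradiated, chosen by the sample titles. The other 6 arrays hold irradiated and nonirradiated fibroblasts lacking Atm (Atm-KO), which received the same dose; they shared the estimate of the spread and entered 1 direct test of the difference between genotypes. The single treatment text of the labels, repeated for every sample, describes the irradiated cultures and names no other agent. The labels do not give the handling of nonirradiated cultures, the strain, the passage, the radiation source or a sham exposure, and they do not say that replicates came from separate embryos or cultures, and p-values therefore reflect variation among these arrays, some of which may be technical. The question is how fibroblasts with an intact damage-signalling kinase differ 3 days after irradiation.

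Ionising radiation breaks both strands of DNA. Atm is a kinase activated at such breaks; it stabilises the transcription factor p53, which switches on the cell-cycle inhibitor Cdkn1a (p21) and genes of apoptosis and repair, while E2F and MuvB complexes hold the genes of replication and mitosis down in arrested cells. A second programme can follow on a scale of days: type I interferons, such as the interferon beta of fibroblasts, bind the Ifnar1 and Ifnar2 receptor, whose kinases Jak1 and Tyk2 activate Stat transcription factors. With Irf9 these form a complex that binds the interferon-stimulated response element (ISRE) in the promoters of antiviral genes.

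Each sample was read on 1 single-colour Agilent array. Levels are log2 probe signals relative to the 75th percentile of the array's probes, so a level belongs to 1 probe and cannot be set against the level of another gene. That percentile lay at a signal of 379 to 757, and on the 6 Atm-WT arrays 55.3% to 64.5% of probes had a signal well above background, with no saturated spot (0). Differences are irradiated minus nonirradiated on the log2 scale, with limma's standard error after the ± sign and 3 arrays a group; a feature was called at an adjusted p under 0.05 (limma, Benjamini-Hochberg over 18430 features). Same-numbered samples deviated together, and limma was also fitted with the sample number as a block, which compares within pairs; "with the block" refers to that fit. All 12 defining fibroblast genes, among them Col1a1, Col3a1, Thy1 and Vim, were well above background on all 6 arrays, at a summed level of 1710 to 2600 without and 1430 to 2380 with irradiation, in units of the 75th percentile. Replicate 1 of both Atm-WT groups stood apart from replicates 2 and 3, so that 272 features differed more than 4-fold between them. The immediate-early gene Fos had 1.01 in nonirradiated replicate 1 against 5.00 and 4.75, and 0.36 in irradiated replicate 1 against 4.75 and 4.85. Replicates 1 and 2 lay on the first slide and replicate 3 on the second, and irradiated samples were always at the next position after their nonirradiated partner, and effects of position cannot be told apart from those of irradiation.

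Without the block 82 of 18430 features were called (0.445%): 78 higher (0.423%) and 4 lower (0.0217%) after irradiation. With the block 417 were called (2.26%), 302 higher (1.64%) and 115 lower (0.624%), and all 82 were among them. Of the 78 higher features 56 had a gene name, and 42 of those 56 belong to a list of 140 genes of the interferon pathway. The median difference of all features was -0.02, and 46.8% lay above 0. The 3 named genes that fell were Rpa1, Calca and Mia. Without replicate 1 of both groups, 39 features were called higher and 0 lower without the block, 80 and 9 with it. Of 60 genes named here that were called with the block alone, 8, 16 and 9 were still called without pair 1, 2 or 3 (adjusted p up to 0.34, 0.327 and 0.24). Gbp4, Cxcl9, Ly6e, Cfb, Clec4a2 and Lgals3bp were called with any 1 pair left out, though Gbp4 and Cxcl9 were above background on only 1 nonirradiated array and Clec4a2 on 1 irradiated array. A background correction by normexp moved the median of all features to -0.16, and differences of dim genes should be read against that shift. It adds an offset of 50, against a 75th percentile of 379 to 757, which shrinks the differences of dim genes. A sign turned by normexp therefore does not decide whether a dim gene differed.

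**Figure D1:**
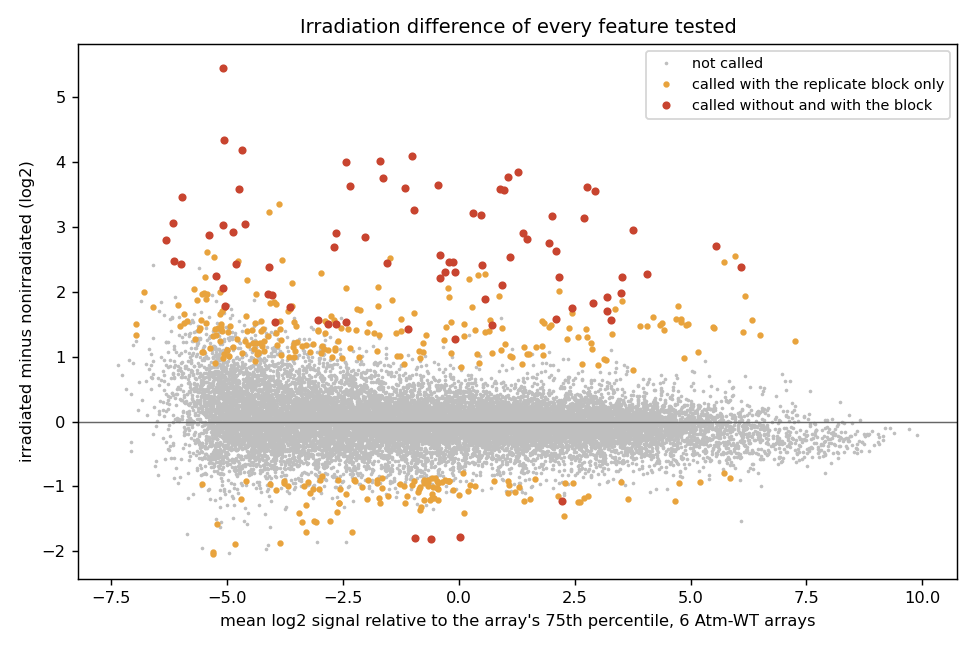
Difference between irradiated and nonirradiated Atm-WT fibroblasts (log2, y axis) against the mean level of 18430 features on the 6 arrays (log2 relative to the array's 75th percentile, x axis); colours mark called features. Features called without the block lay almost all above 0, with 78 higher and 4 lower. With the block 302 were called higher and 115 lower.

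Interferon pathway genes rose together. Of 140 listed genes 113 were tested; 42 rose (37.2%, against 0.423% of all features) and 0 fell without the block, and 69 rose (61.1%, against 1.64%) with it. The median difference over the 113 was 1.51. With 6 genes that had no signal above background in nonirradiated cells set to their lower bounds, the median was 1.47. Genes whose bound fell under 1-fold, such as Ifnb1, kept their full difference there. By pair the median was 1.82 and 1.36 on the first slide and 1.43 on the second, and 94 of 113 genes were higher in all 3 pairs, against 19.3% of all features. The count without the block was 33 to 37 with any single Atm-WT array left out, and 23 without replicate 1 of both groups (39 with the block), at a median of 1.36. Without replicate 1, Stat2, Bst2, Xaf1, Iigp1, Irgm2 and Ccl5 lost their calls (limma adjusted p 0.0513 to 0.059 for these 6 genes). Among the genes below, Gbp3, Ifih1, Ifi204, Cmpk2, Ube2l6, Gvin1, Tap1, Psmb8 and Cxcl10 lost theirs as well. On the 6 arrays alone Stat2, Dhx58, Xaf1, Slfn2, Iigp1, Irgm2 and Ccl5 were among the genes that lost their calls (0.0521 to 0.108). The rise was uneven along the pathway, with medians from 0.05 for receptors and kinases and 0.32 for transcription factors to 2.27 for antiviral effectors, 2.29 for GTPases and 2.80 for oligoadenylate synthetases. The last of these fell to 1.39 with 2 genes at their lower bounds and to 1.05 with normexp, which gave 1.55 for effectors and 1.67 for GTPases, so the order of these roles changed.

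**Figure D2:**
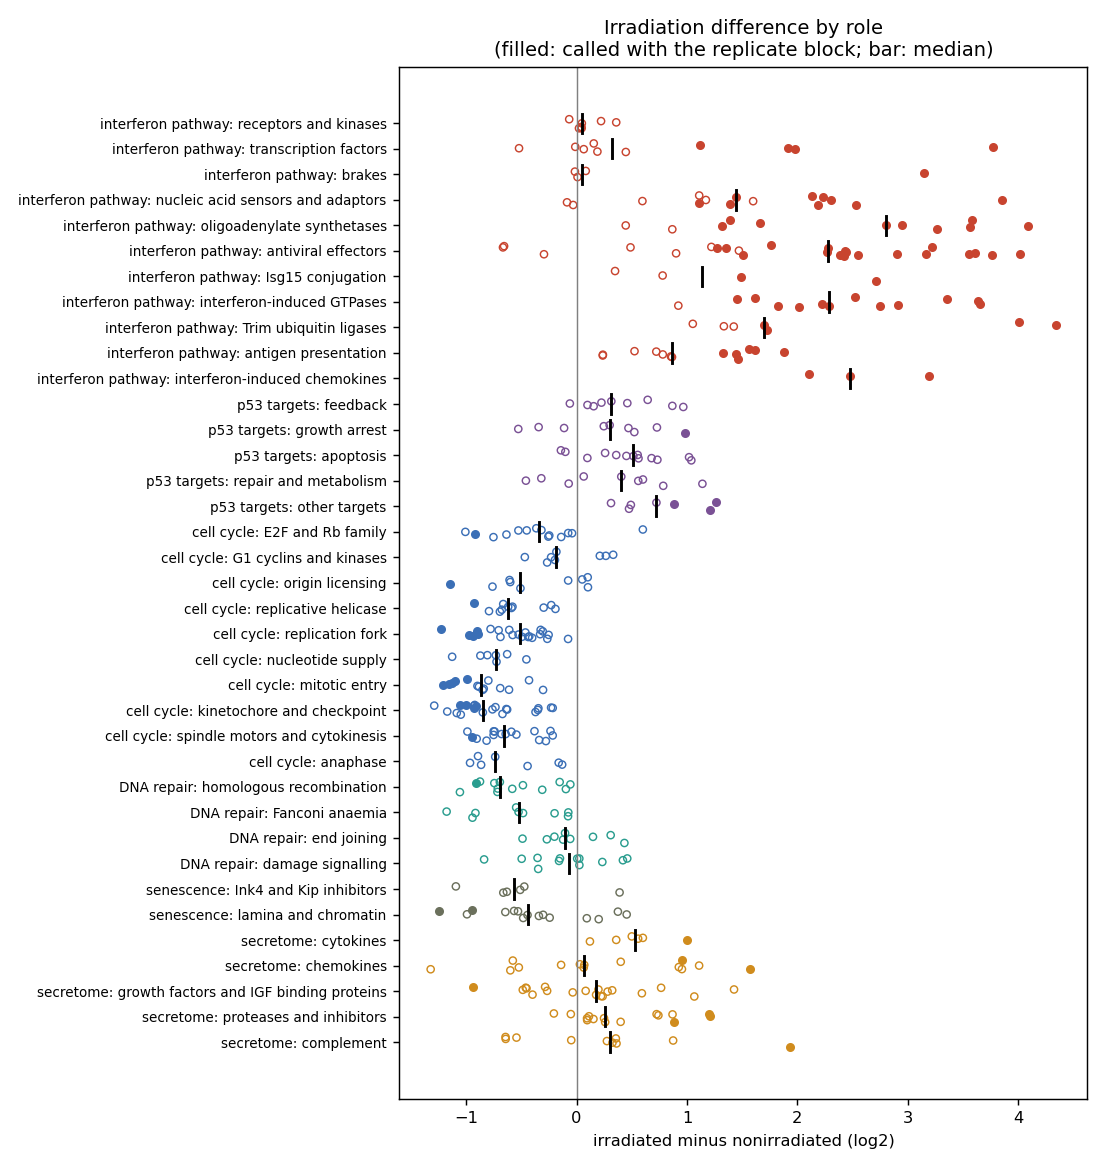
Difference between irradiated and nonirradiated Atm-WT fibroblasts (log2, x axis) for the tested genes of the interferon pathway, 1 point a gene, p53, cell-cycle, repair, senescence and secretome lists, in rows by role; filled points were called with the block and bars are medians. Most interferon roles lie well right of 0, while the medians of receptors and kinases and of brakes are both 0.05, and the cell-cycle roles lie left of it (mitotic entry -0.87).

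Of 9 listed interferons only the ligand interferon beta, Ifnb1, passed the filter on dim probes. It passed through an Atm-KO group, since neither Atm-WT group was above background on all its arrays. Its nonirradiated signals of -7.85, -7.07 and -7.51 were not above background, and of the irradiated signals of -5.00, -5.72 and -6.42 only 1 was, so no fold is given. The groups did not overlap, but the difference of 1.76 ± 0.378 was not called (adjusted p = 0.0918), was called with the block (adjusted p = 0.028) and turned to -0.67 with normexp. Of the receptor chains and kinases, Ifnar1 differed by 0.05 ± 0.261, Ifnar2 by 0.05 ± 0.218 and Jak1 by 0.22 ± 0.253, each less than its standard error. The role ran from -0.07 (Ifngr1) to 0.36 (Jak2). None of the 7 tested (0) was called by limma in either fit, and 0 had an unadjusted p under 0.05.

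Among the transcription factors, 3 of 10 rose, among them Irf7 and Stat2. Irf7, which drives further interferon genes and is itself interferon-induced, had -1.63, -0.33 and -0.52 in nonirradiated and 2.75, 2.95 and 3.13 in irradiated samples. This was a rise of 3.77 ± 0.354, or 13.7-fold (adjusted p = 0.000607), with the groups far apart. Stat2, a member of the complex, went from 2.29, 2.97 and 2.28 to 4.20, 4.71 and 4.57, with no overlap, and rose by 1.98 ± 0.288 (adjusted p = 0.00698). Irf9, the DNA-binding member of the complex, went from 2.17, 2.53 and 2.26 to 3.20, 3.59 and 3.52; its difference of 1.12 ± 0.23 was called with the block alone (adjusted p = 0.0751 without and 0.0116 with it). The factors that act upstream or in other branches did not pass the test: Irf3 gave -0.01 ± 0.386 and Irf1 0.19 ± 0.248.

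Usp18, an Isg15 protease that also blocks the interferon receptor, was the brake that moved. It went from 0.73, 1.49 and 1.15 to 4.11, 4.41 and 4.27, a rise of 3.15 ± 0.25 or 8.85-fold (adjusted p = 0.000153). Socs1, which inhibits the Jak kinases, differed by 0.08 ± 0.285 and was not called.

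**Figure D3:**
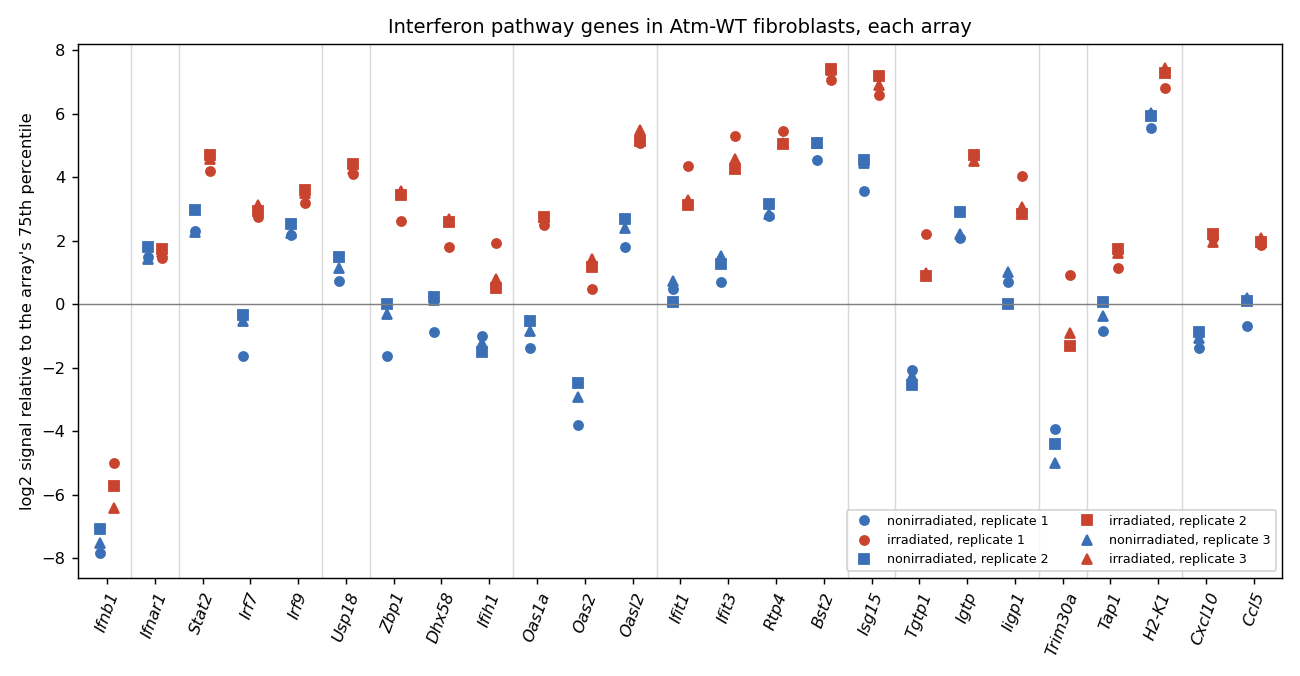
Level in each of the 6 Atm-WT samples (log2 relative to the array's 75th percentile, y axis) for genes of the interferon pathway, 1 point a sample, blue nonirradiated and red irradiated, with the shape marking the replicate. In Irf7, Stat2, Usp18, Oas1a and Isg15 all 3 irradiated samples lie above all 3 nonirradiated ones.

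The promoters of several of these genes are shown because they carry the element that the complex binds. Of 42 called higher genes with a RefSeq promoter (250 bases before to 50 after the start), 20 (47.6%) held the ISRE core, GAAA and GAAA with any 2 bases between them, on either strand. The share was 30.1% of 133 genes called higher with the block, 4.23% of 71 called lower and 3.72% of 10227 tested genes, and 3.44% of all single promoters of the same length. Counting only the bases before the start, the shares were 45.2%, 27.8%, 4.23% and 3.21%. A match describes letters and not binding. Each sequence below ends at the last base before the start, reads 5′ to 3′ along the gene (RefSeq, GRCm38.p6) and has its core matches in capitals; where matches overlap the capitals run on. The windows are chr4:156200819-156200938 (minus strand) for Isg15, chr5:120907526-120907625 (minus) for Oas1a, chr19:34640769-34640888 (plus) for Ifit1, chr11:48992247-48992346 (minus) for Tgtp1, chr3:142559944-142560043 (plus) for Gbp3, which has 2 promoters in the table, and chr8:71537473-71537612 (minus) for Bst2.
Isg15: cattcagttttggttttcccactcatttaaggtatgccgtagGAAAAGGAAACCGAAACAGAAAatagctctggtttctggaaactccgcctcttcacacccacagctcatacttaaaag
Oas1a: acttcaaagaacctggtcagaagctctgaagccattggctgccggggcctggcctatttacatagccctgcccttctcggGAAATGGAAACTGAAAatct
Ifit1: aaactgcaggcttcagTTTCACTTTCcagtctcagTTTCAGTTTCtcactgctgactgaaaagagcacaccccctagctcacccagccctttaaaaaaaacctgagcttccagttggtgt
Tgtp1: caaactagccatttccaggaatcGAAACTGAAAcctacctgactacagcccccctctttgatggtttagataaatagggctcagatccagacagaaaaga
Gbp3: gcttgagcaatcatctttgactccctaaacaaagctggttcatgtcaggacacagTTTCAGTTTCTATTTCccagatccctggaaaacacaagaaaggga
Bst2: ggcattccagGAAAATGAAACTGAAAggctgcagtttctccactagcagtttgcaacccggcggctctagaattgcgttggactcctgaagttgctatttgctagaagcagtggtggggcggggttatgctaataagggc
Isg15 held 3 overlapping matches beginning 78, 72 and 66 bases before the start, and Oas1a held 2 at 20 and 14 bases. Ifit1 and Gbp3 carried theirs on the other strand.

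Of 15 sensors and adaptors for foreign or displaced nucleic acid 4 rose without and 9 with the block, at a median of 1.45. Zbp1, which binds Z-form nucleic acid and can start cell death, went from -1.64, 0.02 and -0.32 to 2.63, 3.43 and 3.56, a rise of 3.85 ± 0.43 or 14.4-fold (adjusted p = 0.00132). The RNA sensors of the cytosol rose too: Ifih1 (MDA5) by 2.31 ± 0.406 (adjusted p = 0.027) and Dhx58 (LGP2) by 2.53 ± 0.384 (adjusted p = 0.0098). Ifih1 lost its call when any of 5 of the 6 Atm-WT arrays was left out (adjusted p up to 0.128), and Dhx58 without irradiated replicate 2 or 3 (up to 0.0609). Their relative RIG-I, listed as Ddx58, differed by 1.45 ± 0.344 and was called with the block (adjusted p = 0.0138). Ifi204, an interferon-inducible DNA-binding protein, rose by 2.23 ± 0.34 (adjusted p = 0.0098), but not without nonirradiated replicate 1 or 2 (up to 0.0567). Trex1, an exonuclease that degrades DNA in the cytosol, went from -0.23, 0.73 and 0.56 to 0.87, 1.81 and 1.70 and was called with the block (adjusted p = 0.0276). The DNA sensor Cgas was not called, at -1.11, -1.27 and -1.75 without and -1.07, -1.75 and -1.41 with irradiation, a difference of -0.03 ± 0.277, and Mavs, the adaptor of the RNA sensors, differed by -0.09 ± 0.343.

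The oligoadenylate synthetases, enzymes of the antiviral response that are switched on by double-stranded RNA, included the named gene with the smallest p, Oas1a. Of 11 genes tested in this role, 6 rose without and 9 with the block. Oas1a went from -1.37, -0.52 and -0.84 to 2.51, 2.74 and 2.76, a rise of 3.58 ± 0.253 or 11.9-fold (adjusted p = 9.34e-05). Oas2 rose by 4.09 ± 0.474, 17-fold (adjusted p = 0.00154); its other probe gave 2.36. Oas1f rose by 3.57 ± 0.378, Oasl1 by 3.26 ± 0.333 and Oasl2 by 2.95 ± 0.27 (adjusted p = 0.000575 to 0.000951). Oas1d was not above background in nonirradiated cells and is given as at least 1.53-fold higher, a bound that sets the irradiated mean against the lowest signal above background on the nonirradiated arrays; with normexp its sign turned (-0.43). The synthetases are close relatives, and their probes may share signal.

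Antiviral effectors were the largest group, with 14 of 25 rising without and 18 with the block at a median of 2.27. Ifit1, which binds foreign RNA caps, went from 0.49, 0.06 and 0.74 to 4.37, 3.12 and 3.29, a rise of 3.16 ± 0.362 or 8.95-fold (adjusted p = 0.00154). Ifit3, its partner, rose by 3.55 ± 0.384 (adjusted p = 0.001), and Rsad2 (viperin) by 4.02 ± 0.479 or 16.2-fold (adjusted p = 0.002). Both Ifit1 and Ifit3 were highest in irradiated replicate 1. Cmpk2, the neighbour of Rsad2 that makes its nucleotide substrate, rose by 2.91 ± 0.364, but gave 0.91 with normexp (adjusted p = 0.676) and was not called without replicate 1 of both groups (0.0544). Rsad2 gave 2.28 with normexp and lost its call there (0.0839). Bst2 (tetherin), which holds budding virus at the cell surface, went from 4.56, 5.07 and 5.08 to 7.05, 7.42 and 7.39, 5.22-fold (adjusted p = 0.0045). Xaf1, Rtp4 and Slfn2 rose by 1.76 ± 0.236, 2.27 ± 0.235 and 3.22 ± 0.436. The group was not uniform. The membrane proteins Ifitm1, Ifitm2 and Ifitm3 differed by -0.67 ± 0.394, -0.29 ± 0.304 and 0.49 ± 0.31, and none was called in either fit, although Ifitm1 was lower in all 3 irradiated samples than in any nonirradiated one.

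Isg15, a ubiquitin-like modifier of proteins, went from 3.56, 4.54 and 4.46 to 6.59, 7.19 and 6.92, a rise of 2.71 ± 0.293 or 6.55-fold (adjusted p = 0.001). Its conjugating enzyme Ube2l6 rose by 1.49 ± 0.283 (adjusted p = 0.0458), a call lost when any of 5 of the 6 arrays was left out (adjusted p up to 0.267). The activating enzyme Uba7 differed by 0.78 and the ligase Trim25 by 0.35, and neither was called in either fit.

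Interferon-induced GTPases, which attack the vacuoles of intracellular pathogens, rose in 6 of 13 tests without and 12 with the block, and all 13 had groups that did not overlap, against 4.5% of all features higher and 10.2% in either direction. Tgtp1 went from -2.06, -2.54 and -2.25 to 2.23, 0.88 and 1.0, a rise of 3.65 ± 0.442 or 12.6-fold (adjusted p = 0.00202); its other probe gave 1.87. Iigp1 rose by 2.75 ± 0.384, Igtp by 2.22 ± 0.268 and Irgm2 by 1.82 ± 0.266. Gbp3 rose by 2.91 ± 0.464 (adjusted p = 0.0131) but not without nonirradiated replicate 2 or 3 (up to 0.0785). Gvin1 rose by 3.63 ± 0.671 (adjusted p = 0.037), a call that no single array could be spared from (adjusted p 0.0802 to 0.169). Gbp4 had -5.52, -5.69 and -5.46, of which only 1 was above background, against -1.08, -3.04 and -2.50; its difference of 3.35 ± 0.705 rests on those dim signals and was called with the block alone (adjusted p = 0.0853 without and 0.00368 with it). Irradiated replicate 1 was the highest of its group in Tgtp1, Gbp3, Gbp4 and Gvin1. Among the Trim ubiquitin ligases Trim30a rose by 4.01 ± 0.56, 16.1-fold (adjusted p = 0.00518), and Trim30d was at least 6.2-fold higher (adjusted p = 0.00852). With normexp both calls were lost, at differences of 1.69 and 0.49 (adjusted p = 0.676 and 0.776), and that of Trim30d also on the 6 arrays alone (0.0568).

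Antigen presentation moved less, with 2 of 13 genes rising without and 6 with the block at a median of 0.86. Tap1, which pumps peptides into the endoplasmic reticulum, went from -0.83, 0.09 and -0.37 to 1.15, 1.75 and 1.63, a rise of 1.88 ± 0.299 (adjusted p = 0.0128). Psmb8, a catalytic subunit of the immunoproteasome, rose by 1.56 ± 0.265 (adjusted p = 0.0213). Each of these calls was lost without any of 4 of the 6 arrays (adjusted p up to 0.0807 for Tap1 and 0.135 for Psmb8). The class I heavy chains H2-K1, H2-D1 and H2-T23 differed by 1.33 ± 0.33, 1.61 ± 0.401 and 1.46 ± 0.409 and were called with the block alone (adjusted p = 0.00417 to 0.00445). H2-K1 had 5.55, 5.94 and 6.04 against 6.81, 7.27 and 7.44. The light chain B2m gave 0.53 ± 0.269 and was not called.

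Of the induced chemokines, Cxcl10, which attracts T cells, went from -1.39, -0.89 and -1.05 to 2.08, 2.20 and 1.97, a rise of 3.19 ± 0.418 or 9.13-fold (adjusted p = 0.00337), a call that was lost without replicate 1 of both groups (adjusted p = 0.0619). Ccl5 went from -0.70, 0.11 and 0.21 to 1.87, 1.97 and 2.10, a rise of 2.11 ± 0.303 (adjusted p = 0.00661). Cxcl9, above background on 1 nonirradiated array, gave 2.48 ± 0.6 and was called with the block alone (adjusted p = 0.00234); with normexp it turned to -0.08.

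Of the 56 named genes that rose, 14 were outside the interferon list, and they were looked up after their values were seen. Several are of the same families: Apol9b rose by 2.63 ± 0.441, Sp110 by 2.31 ± 0.29, Ifi47 by 2.57 ± 0.33, Phf11a by 2.47 and Trim69 by 1.76, and Slfn9 was at least 3.89-fold higher, though its sign turned with normexp (-0.09). Apol9b lost its call without any of 3 arrays (adjusted p up to 0.113), and Phf11a, Trim69 and Slfn9 each without any of 2 (up to 0.0599). With normexp Sp110, Ifi47 and Trim69 lost theirs as well, at 1.59, 1.76 and 0.01 (adjusted p = 0.0729, 0.0585 and 0.998). Sp110, a nuclear body protein, went from -1.65, -1.21 and -1.49 to 0.52, 0.91 and 1.13. Hdc, the enzyme that makes histamine, went from -4.60, -4.41 and -5.17 to -3.16, -3.04 and -3.39, a rise of 1.53 ± 0.247 (adjusted p = 0.0148). Bglap (osteocalcin), a bone protein, rose by 1.5 ± 0.268 (adjusted p = 0.0294), while 10 of the 11 tested cartilage and bone genes lay below 0 (median -0.41). Both calls were lost when any of 5 of the 6 arrays was left out (adjusted p up to 0.0901 for Hdc and 0.137 for Bglap), and with normexp Hdc turned to -0.15. Batf2, a transcription factor, gave 2.25 ± 0.371 (adjusted p = 0.0172) with 1 of 3 nonirradiated signals above background, lost its call without any of 3 arrays (up to 0.112) and turned to -0.36 with normexp.

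Genes that rose with the block lay next to each other in the genome more than once. A run was at least 3 called genes among the tested genes in the RefSeq gene order (GRCm38.p6). Each lay at most 3 places after the called gene before it, so uncalled genes could lie between. Runs numbered 14 and held 60 of the 184 named genes that rose, while the 92 that fell formed none. No share in runs was computed for other genes. These runs were sought after the values were seen. Each begins and ends with a called gene, so the counts called within a run are high by construction. Over all features the block called 1.64% higher. They included the Oas stretch from Oas2 to Oas1d with 7 of 8 tested genes called, the Ifit stretch with 4 of 4, and Gbp stretches with 4 of 4 and 3 of 3. Another held 6 of 6 tested genes, of a family known from mast cells and cytotoxic lymphocytes, from Cma1 through Cma2, Mcpt4, Mcpt8 and Gzme to Gzmc. Its members Mcpt1, Mcpt2, Gzmd, Gzmf and Ctsg were on the array but did not pass the filter on dim probes. Cma1, a chymase, went from -5.15, -5.16 and -4.70 to -3.10, -3.04 and -3.01, a rise of 1.96 ± 0.336 (adjusted p = 0.0223) that was lost without any of 5 of the 6 arrays (up to 0.116). Mcpt8, a serine protease, had -2.98, -0.61 and -0.53 against -1.53, 0.64 and 0.77; the groups overlapped, while each pair rose, by 1.33 ± 0.227 with the block (adjusted p = 0.0194). With normexp Cma1, Cma2, Mcpt4 and Gzmc turned to -0.01, -0.17, -0.40 and -0.31. Of the mast-cell genes Cpa3, Fcer1a, Tpsb2 and Ms4a2, none passed the filter on dim probes, and Gzmb, a granzyme of the same family, gave -0.35 (adjusted p = 0.858 with the block).

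A further run joined 6 Ly6 genes of small membrane-anchored proteins, from Ly6e to Ly6f, none of them called without the block. Ly6a (Sca-1), a stem cell and interferon-inducible surface marker, had 4.69, 5.66 and 5.97 against 6.31, 7.06 and 7.10, a difference of 1.38 ± 0.203 with the block (adjusted p = 0.0101). Ly6e, which limits virus entry, went from 3.28, 4.09 and 4.15 to 5.01, 5.90 and 5.95 (1.78 ± 0.174, adjusted p = 0.00141 with the block). In both genes all irradiated samples were above all nonirradiated ones. Members of these families are near copies of each other, so 1 transcript could contribute to several probes.

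**Figure D4:**
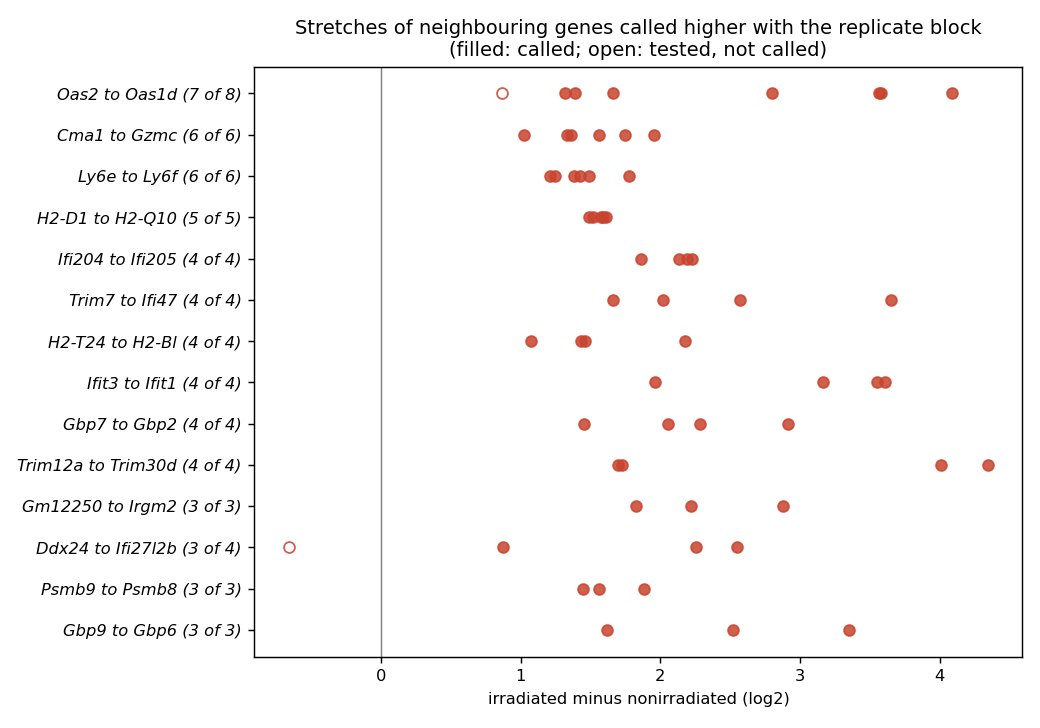
Difference between irradiated and nonirradiated Atm-WT fibroblasts (log2, x axis) for the tested genes of each stretch of neighbouring genes (rows, named by their first and last gene); filled points were called with the block. Of the 8 tested genes of the Oas stretch 7 were called with the block, and all 6 tested genes from Cma1 to Gzmc. Stretches were chosen by these calls, and over all features the block called 1.64% higher.

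Targets of p53 leaned upwards by small amounts. Of 47 tested, limma called 0 without the block, where 10 of 47 had an unadjusted p under 0.05 (higher in 3.75% of all features), and 4 (8.51%, against 1.64% of all features) with it: Cdkn1a, Gdf15, Cd80 and Zfp365. The median difference was 0.47, and 0.41, 0.44 and 0.48 by pair; 33 of 47 were higher in all 3 pairs, against 19.3% of all features. With any 1 pair left out, the block fit called 0 of them. Cdkn1a, the inhibitor that carries the p53 arrest, had 4.06, 4.66 and 4.40 without and 4.95, 5.70 and 5.42 with irradiation. Its groups did not overlap, and the difference was 0.98 ± 0.313 or 1.98-fold (adjusted p = 0.401), 0.98 ± 0.193 with the block (adjusted p = 0.0354). Gdf15, a secreted stress factor, gave 0.89 ± 0.168 with the block (adjusted p = 0.0315). Cd80 and Zfp365, both dim, gave 1.21 ± 0.231 and 1.26 ± 0.243 with the block (adjusted p = 0.0321 and 0.033) and turned to -0.09 and -0.25 with normexp.

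The feedback regulator Mdm2, the ligase that degrades p53, had 1.71, 1.93 and 1.65 against 2.96, 2.50 and 2.74; with no overlap its difference of 0.97 ± 0.313 was not called in either fit (adjusted p = 0.421 and 0.105). Ccng1, another feedback gene, gave 0.64 ± 0.306, and Trp53 itself 0.32 ± 0.297. Among apoptosis genes Pmaip1 (Noxa) gave 1.04 ± 0.494, Fas 0.68 ± 0.342, Bbc3 (Puma) 0.45 ± 0.312 and Bax 0.26 ± 0.298, and none was called in either fit. Some targets lay below 0: the damage sensor subunit Ddb2 gave -0.46 ± 0.269 and the stress protein Sesn1 -0.53 ± 0.303, lower in all 3 irradiated samples than in any nonirradiated one. Atm was dim in these cells (-3.55, -5.65 and -4.25 against -2.87, -4.60 and -4.60).

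Genes of replication and mitosis lay lower after irradiation. Of 129 tested cell-cycle genes 122 were below 0, at a median of -0.63, and 82.9% were lower in all 3 pairs against 25.7% of all features. Called were 1 gene without the block (0.775%, against 0.0217% of all features) and 18 with it (14.0%, against 0.624%), all lower. The calls rest on all 3 pairs: with any 1 pair left out the block fit called 0, while the median stayed between -0.59 and -0.61. Unadjusted p-values under 0.05 numbered 51 of 129 without the block, all lower, against 2.71% of all features.

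Rpa1, the large subunit of the protein that coats single-stranded DNA, went from 2.87, 3.00 and 2.62 to 1.38, 1.80 and 1.63. It fell by 1.23 on the log2 scale (standard error 0.238), just past the threshold (adjusted p = 0.0499), and missed it with any single array left out (0.0912 to 0.225). Its partner Rpa3 gave -0.94 ± 0.201 with the block, also at the edge (adjusted p = 0.05). Other fork genes called with the block were the primase Prim1 (-0.97 ± 0.176), the clamp loader Rfc4 (-0.89 ± 0.169) and the polymerase subunit Pole2 (-0.90 ± 0.189). Pcna, the clamp itself, went from 4.56, 4.53 and 4.55 to 3.86, 3.84 and 3.61; with no overlap its difference of -0.78 ± 0.214 was not called in either fit (adjusted p = 0.268 and 0.0634). In the replicative helicase all 11 genes were below 0, and Mcm6 was called with the block (-0.93 ± 0.183, adjusted p = 0.0365). Gmnn (geminin), the inhibitor of origin licensing, went from 3.00, 2.68 and 2.48 to 1.90, 1.57 and 1.27 (-1.14 ± 0.175 with the block, adjusted p = 0.0124). Nucleotide-supply genes were lower without a call: Tk1 gave -1.13 ± 0.333 and Rrm2 -0.73 ± 0.261.

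Mitotic entry had the lowest median of the roles, -0.87, with 5 of 14 genes called lower with the block. Ccnb1, the mitotic cyclin, had 0.25, -0.10 and -0.56 without and -0.62, -1.45 and -1.98 with irradiation, a difference of -1.21 ± 0.184 with the block (adjusted p = 0.012). Ccnb2 gave -1.15 ± 0.226, Ccna2 -1.10 ± 0.194, the kinase Melk -1.13 ± 0.198 and Aurkb, the kinase of chromosome attachment, -0.99 ± 0.21. In Ccna2 the groups overlapped and only the pairs separated. Kinetochore genes called with the block were Bub1b, Cenph, Cenpn and Nuf2 (differences of -0.91 to -1.05). Of the regulators, the repressor E2f7 was called with the block (-0.92 ± 0.183, adjusted p = 0.0369), E2f1 gave -0.25 ± 0.361 and Foxm1 -0.63 ± 0.309. G1 cyclins and kinases stood nearest 0, with a median of -0.19 and no call: Ccne2 gave -0.18 ± 0.298. The proliferation marker Mki67 was higher in replicate 1 than in the others (2.03, -0.18 and 0.36 without irradiation) and gave -0.90 ± 0.66.

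**Figure D5:**
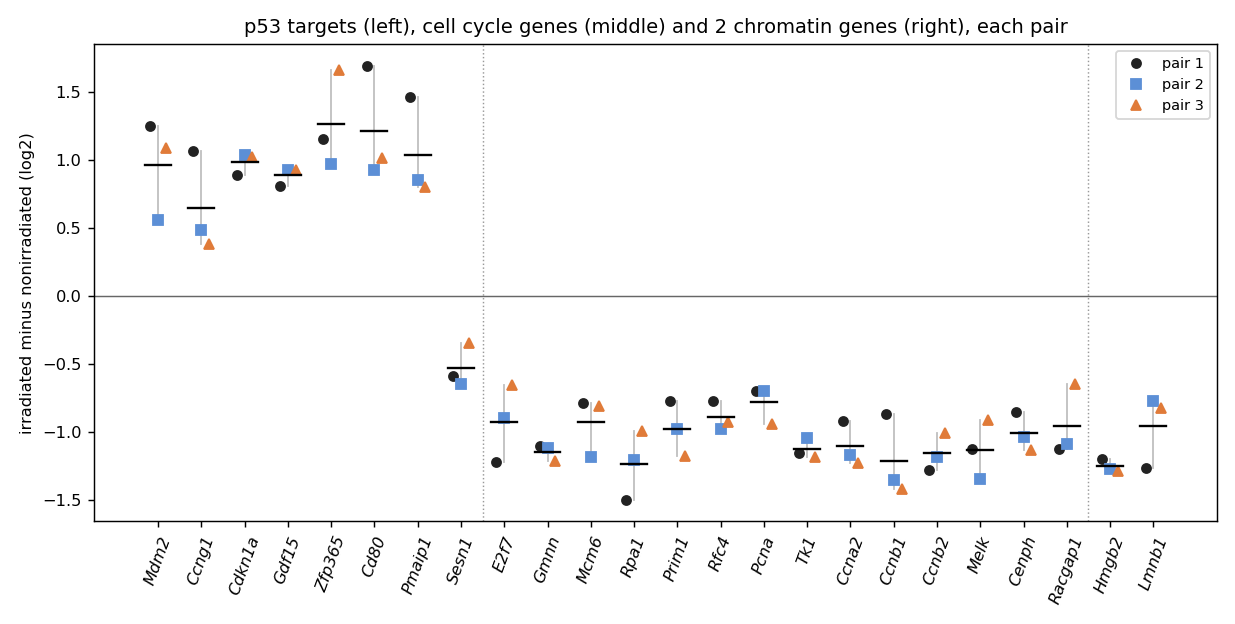
Difference between the irradiated and the nonirradiated Atm-WT sample of the same number (log2, y axis) for p53 targets, cell-cycle genes and 2 chromatin genes; 1 point a pair, with a bar at the mean. All 3 pairs lie above 0 for Cdkn1a and Gdf15 and below 0 for Ccnb1, Gmnn and Hmgb2.

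Promoters of the 71 genes called lower with the block and present in the RefSeq table held the CHR element (TTTGAA), a site of the MuvB complex, in 19.7% against 14.4% of tested genes and 21.1% of genes called higher with the block. Before the start alone these shares were 14.1%, 12.9% and 20.3%. The promoters of the 71 genes held a CCAAT box, bound by NF-Y, in 46.5% against 43.0% of tested genes. E2F sites were rarer, TTTCCCGC in 5.63% against 2.18% and TTTGGCGC in 2.82% against 0.988%. Both strands were searched for each. These shares are descriptions of letters in a 300-base window and no promoter is printed for them.

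Outside the lists, 2 genes known from dividing cells fell with the block and were picked after their values were seen. Pclaf, a Pcna-binding protein, had 3.70, 2.48 and 2.81 against 2.31, 1.23 and 1.09 (-1.45 ± 0.178 with the block, adjusted p = 0.00384). Stmn1, which destabilises microtubules, gave -1.22 ± 0.199 (adjusted p = 0.0164 with the block). Of 43 DNA repair genes 1 was called with the block, the exonuclease Exo1 (-0.91 ± 0.17, adjusted p = 0.029), while the block called 2.26% of all features. The call of Exo1 was lost with any 1 pair left out (adjusted p 0.103 to 0.252). The list median was -0.27, with 34 of 43 below 0. The 13 tested genes of homologous recombination were all below 0 with a median of -0.69, while end joining had a median of -0.10.

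Of 21 genes tied to senescence 2 were called with the block, both lower and both known to be lost from senescent nuclei. The block called 2.26% of all features, 0.624% lower. The list median was -0.48, with 16 of 21 below 0. Hmgb2, a chromatin protein, had 3.73, 2.92 and 2.97 against 2.54, 1.65 and 1.68 (-1.25 ± 0.176, adjusted p = 0.00796), and Lmnb1 (lamin B1) had 3.24, 2.96 and 2.61 against 1.97, 2.19 and 1.79 (-0.95 ± 0.182, adjusted p = 0.0323). In both genes the groups did not overlap, but neither was called with any 1 pair left out (adjusted p 0.072 to 0.0858 for Hmgb2 and 0.126 to 0.281 for Lmnb1). The inhibitors that mark senescence showed no call: Cdkn2a gave -0.51 ± 0.557, with 1.90, 2.26 and 2.97 against 0.52, 2.91 and 2.19, and Cdkn2b gave 0.39 ± 0.303. Of the 6 inhibitors tested in this list 5 lay below 0, at a median of -0.57, with Cdkn2c lowest at -1.09. In 3 of the 6 all irradiated samples were below all nonirradiated ones, against 5.7% of all features. Glb1, the lysosomal beta-galactosidase, gave 0.20 ± 0.364.

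The secreted factors of senescent and irradiated cells were mixed. Of 64 tested, limma called 0 without the block, where 8 higher and 1 lower had an unadjusted p under 0.05 (3.75% and 2.71% of all features), and with it 7 rose and 1 fell (1.64% and 0.624% of all features). The list median was 0.24, but -0.00 without nonirradiated replicate 1, and leaving out pair 1, 2 or 3 left 1, 1 and 2 calls higher. Cfb, a complement protease, had -1.23, 0.60 and 0.31 against 0.96, 2.15 and 2.37 (1.94 ± 0.208 with the block, adjusted p = 0.00234). Ccl8 and Ccl7, chemokines for monocytes, gave 1.57 ± 0.231 and 0.95 ± 0.199 with the block (adjusted p = 0.0101 and 0.0463), while their neighbour Ccl2, with no overlap between groups, gave 1.11 ± 0.254 and was not called (adjusted p = 0.0676). Il6, the cytokine most often named in this secretome, was dim and just past the threshold (1.0 ± 0.21, adjusted p = 0.0476 with the block). Serpine2 and Mmp10 were also called higher, the latter turning to -0.37 with normexp. Igfbp5, which binds insulin-like growth factors, had 6.33, 5.36 and 5.33 against 5.16, 4.47 and 4.60 (-0.93 ± 0.181, adjusted p = 0.0341 with the block).

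Of 125 genes of matrix, contraction, lipid, cholesterol, stress and glycolysis, 1 was called, Fosl1 with the block (1.38 ± 0.172, adjusted p = 0.00417), while the block called 2.26% of all features; the list median was -0.06. Fosl1, a growth-responsive AP-1 subunit, had -3.41, -2.14 and -2.49 against -2.20, -0.77 and -0.93. Col1a1 gave -0.17 ± 0.276 (0.10 with normexp) and was not called. Hmox1, a gene of oxidative stress, gave 0.34 ± 0.432. Markers of other cell types were also measured. Of 12 macrophage genes 9 were tested and 0 called in either fit, with a summed level of 2.86 to 5.09 without and 2.13 to 3.22 with irradiation, in units of the 75th percentile; their part in the interferon and chemokine results was not tested. Ptprc, Cd68 and Itgam did not pass the filter on dim probes. Cartilage and bone genes summed to 38.6 to 46.1 without and 26.0 to 42.9 with irradiation.

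Among the genes that fell, Calca and Mia were called in both fits. Calca, which encodes calcitonin and the neuropeptide CGRP, went from 0.44, 0.26 and 0.19 to -2.32, -1.10 and -1.12 (-1.81 ± 0.327, adjusted p = 0.0314). Mia, a cartilage and melanoma protein, went from -0.12, -0.23 and 0.22 to -2.11, -1.65 and -1.78 (-1.80 ± 0.341, adjusted p = 0.0435), and its 2 other probes gave -1.71 and -1.64. Calca lost its call without any of 5 of the 6 arrays (adjusted p up to 0.136) and Mia without any of the 6 (0.11 to 0.166). With the block Matn3, a cartilage matrix protein (-1.58 ± 0.186, adjusted p = 0.00336), Pf4, a platelet and macrophage chemokine (-1.70 ± 0.276, adjusted p = 0.016), and Wfdc18 (-1.70 ± 0.267, adjusted p = 0.0138) fell as well. Clec4a2, a lectin of myeloid cells, had -3.10, -4.57 and -5.17 against -4.89, -6.59 and -7.51, of which 1 irradiated signal was above background (-2.05 ± 0.221 with the block, adjusted p = 0.00234).

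The effect of irradiation was then tested against that in Atm-KO fibroblasts, whose arrays are separate from those of the Atm-WT groups. Without the block 1 feature of 18430 differed (0.00543%), and with it 4 (0.0217%), all with a smaller effect in Atm-KO cells and all of the interferon pathway. Oas1a rose by 3.58 ± 0.253 in Atm-WT and differed by 0.59 ± 0.253 in Atm-KO cells, a difference of effects of -2.99 ± 0.357 (adjusted p = 0.0412, 0.0167 with the block). The call without the block was lost when any of 11 of the 12 arrays was left out (adjusted p up to 0.258) and without replicate 1 of both Atm-WT groups (0.116). With the block Oas1f (-2.81 ± 0.26, adjusted p = 0.0167), Usp18 (-2.43 ± 0.258, adjusted p = 0.0287) and Isg15 (-2.40 ± 0.257, adjusted p = 0.0287) differed as well; none of the 4 was called with the block once pair 1 or pair 3 of Atm-WT was left out (0.133 to 0.297), and Usp18 and Isg15 were not called without pair 2 either (0.0805 and 0.117).

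For the other genes the effects stand side by side without a call for the difference. Over the 113 interferon genes the median effect was 1.51 in Atm-WT and 0.71 in Atm-KO cells, and it was smaller in Atm-KO for 96; the block fit called 69 higher in Atm-WT and 27 in Atm-KO, where it called 2.05% of all features and 1.18% higher. Cxcl10 differed by 1.80 and Ccl5 by 1.64 in Atm-KO cells, both called there with the block (adjusted p = 0.00894 and 0.0136). Cell-cycle genes had medians of -0.63 and -0.54, with 18 and 23 called lower with the block, and Ccnb1 gave -1.21 in Atm-WT and -1.12 in Atm-KO cells. For p53 targets the medians were 0.47 and 0.23, with 4 and 3 called with the block; Cdkn1a gave 0.98 and 0.59, Mdm2 0.97 and 1.24.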

How the data were processed

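RNA of 12 mouse fibroblast samples was measured on single-colour Agilent arrays, 3 arrays in each of 4 groups taken from the sample titles. The scanner output deposited by the authors holds intensity values extracted with Agilent Feature Extraction 10.7.1.1 per the file headers (the submitters' processing notes give 11.0), with background subtraction and spatial detrending already in the processed signal. From it were computed log2 processed signals minus each array's 75th percentile, so a level of 0 is that percentile. Control spots and outlier spots were left out and spots of a probe averaged. The brightest probe stood for a gene (41174 probes, 25097 with a gene name, 17305 genes), and 18430 features were tested whose signal exceeded background (Agilent's flag) on each array of 1 or more groups. Gene names are RefSeq symbols of the accessions in the array files and can be old. Features without a match kept the array's own identifier.

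Group means of all 12 arrays were fitted with limma 3.58.1 in R 4.3.3, with Benjamini-Hochberg adjustment over all features and a threshold of 0.05, without the sample number (8 residual and 4.13 prior degrees of freedom); no block was used because the labels do not say what a number marks. Deviations of same-numbered Atm-WT samples from their group means correlated at 0.852, 0.732 and 0.481, and at 0.51, 0.269 and 0.503 in Atm-KO, all above the minimum of 0.1 set for pairing. Different-numbered samples correlated at -0.696 to 0.302 in Atm-WT and at -0.527 to 0.335 in Atm-KO, where number 2 correlated more with number 3 than with itself. On that rule the samples were taken as pairs, and the fit with the replicate block is printed beside each result it changes. The rule cannot by itself show that numbers 2 and 3 are pairs. Replicate 1 stood apart in both Atm-WT groups, and deviations from a group mean that includes it make numbers 2 and 3 deviate together. The ± of a difference is its standard error from the fit. Precision is limited by the number of arrays.

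Alternatives were normexp (offset 50), quantile normalization, centring on bright probes, other filters, the mean of probes, slide as a block, the 6 Atm-WT arrays alone, single arrays or pairs left out, a trended robust prior, and the log2 values of the authors' deposited matrix. Those log2 values are centred on each probe, by a reference that the sources used here do not state; their differences followed the scanner values (r of 0.998 to 1.00, column medians -0.426 to 0.268). Normexp used the median spot signal, since a mean signal is not in the files used here. Fits were also run on simulated data with normal noise, a pair effect set from these data, no slide effect and no replicate standing apart. Those runs assume the pairing and cannot test it. Promoters and gene order came from RefSeq tables (GRCm38.p6). The named genes were anchor genes of the lists, up to 6 called members of each role by smallest adjusted p, and the 12 highest and 8 lowest called genes with groups apart in either fit; neighbours, genes outside the lists and some list members near 0 were added after their values were seen. Some genes that this rule names are not reported here. The comparison, its lists and the named genes were chosen with earlier results of these data known.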

Additional observations from a re-analysis of the deposited data

Results flagged for a closer look

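In 4 genes the effect of irradiation in Atm-KO fibroblasts differed from that in Atm-WT fibroblasts by the test of the difference itself. Oas1a, an antiviral oligoadenylate synthetase, rose by 3.58 in Atm-WT and differed by 0.59 in Atm-KO cells, a difference of -2.99. Oas1f, of the same family, gave -2.81 (3.57 against 0.76). Usp18, the Isg15 protease, gave -2.43 (3.15 against 0.71), and Isg15 itself gave -2.40 (2.71 against 0.31). Oas1a passed the limma test without and with the block, the other 3 with the block alone, and none passed with the block once pair 1 or pair 3 of Atm-WT was left out. Without pair 2, Oas1a and Oas1f passed and Usp18 and Isg15 did not (adjusted p = 0.0805 and 0.117).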

How the results depend on the processing

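Without the block 78 features were called higher and 4 lower. The block, which takes same-numbered samples as pairs although the labels do not, gave 302 and 115. Without pair 1, 2 or 3 it gave 80, 155 and 122 higher and 9, 13 and 7 lower. Slide as a block gave 124 and 15, the 6 Atm-WT arrays alone 44 and 0, and these with the block 426 and 263. Normexp gave 44 and 0, no filter 57 and 0, and the mean of probes 77 and 2. Leaving out replicate 1 of both groups, chosen after seeing the data, gave 39 and 0, and single Atm-WT arrays left out gave 49 to 68 and 0 to 3. Single Atm-KO arrays left out, which enter only through the spread, gave 65 to 96 and 1 to 8, with 96 higher without irradiated replicate 1. Other settings gave 61 to 83 and 3 to 5. The cause of these shifts was not tested.

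Features with a smaller effect in Atm-KO numbered 1, and 4 with the block, 2 by quantile normalization or with a trended robust prior, and 0 with normexp, centring, no filter, slide as a block or without replicate 1; single arrays of either genotype left out gave 0 to 1.

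Of 145 genes named in the text, 19 turned with normexp: Ifnb1 to -0.67, Oas1d -0.43, Cxcl9 -0.08, Slfn9 -0.09, Hdc -0.15, Batf2 -0.36, Cma1 -0.01, Cma2 -0.17, Mcpt4 -0.40, Gzmc -0.31, Ly6f -0.25, Cd80 -0.09, Zfp365 -0.25, Mmp10 -0.37, Ifitm2 0.09, E2f1 0.01, Col1a1 0.10, Irf3 0.20 and Mavs 0.02. The other turns were in genes not called by any setting: Col1a1 (0.08 by quantile normalization, -0.33 to 0.09 with single arrays left out), Irf3 (0.01 by quantile normalization, 0.01 by centring, 0.00 in the matrix) and Cgas (0.14 by the mean of probes). With single arrays left out Irf3 ran from -0.21 to 0.28, Ifnar1 from -0.02 to 0.16, Ifnar2 from -0.09 to 0.18, Socs1 from -0.04 to 0.29, Cgas from -0.22 to 0.14, Mavs from -0.30 to 0.19, Gzmb from -0.97 to 0.70 and Cdkn2a from -1.03 to 0.17. With the block and a pair left out, Ifnar1 gave -0.03, Ifnar2 and Socs1 -0.00, Irf3 0.08, Cgas 0.19, Mavs 0.01 and Gzmb 0.68; without replicate 1 of both groups and without the block, Irf3 gave 0.08 and Mavs 0.01.

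With the block 60 of the 145 were newly called and none lost its call. On the 6 arrays alone 23 lost it, 25 without replicate 1, 12 with no filter and 9 to 15 with a single Atm-WT array left out. With normexp 15 lost it at an unchanged sign. Oas1d, Slfn9, Hdc, Batf2 and Cma1, called without the block, turned sign with normexp and were not called there either (limma adjusted p 0.78 to 0.997). List medians ran from 1.05 to 1.69 (interferon), 0.29 to 0.57 (p53), -0.72 to -0.54 (cell cycle) and -0.00 to 0.44 (secretome). Ratios of dim genes rest on signals near background.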

Other observations

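Some genes outside the lists were singled out after their values were seen. Lgals3bp, a secreted galectin-binding glycoprotein, had 4.59, 5.65 and 5.41 in nonirradiated and 6.51, 7.44 and 7.49 in irradiated Atm-WT samples. The groups did not overlap, and the difference of 1.93 was called with the block alone (limma, adjusted p = 0.11 without and 0.000934 with it) and with any 1 pair left out. Cd274 (PD-L1), the ligand that restrains T cells, was dim at -4.70, -4.13 and -4.62 against -2.24, -3.25 and -2.61, a difference of 1.79 that was called with the block (adjusted p = 0.0254) but in only 1 of 3 fits with a pair left out (adjusted p up to 0.229). Mlkl, the effector of necroptosis, which Zbp1 can set off, gave 1.45 with the block (adjusted p = 0.0299). Il18bp, the secreted inhibitor of interleukin 18, gave 1.34 (adjusted p = 0.0213). In both the groups did not overlap, and the calls were lost in 3 and 2 of the 3 fits with a pair left out (up to 0.258 and 0.213).

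Among genes lower with the block, Slc47a1, a transporter that exports organic cations, had -2.64, -3.16 and -2.96 against -4.44, -4.95 and -5.00 (-1.87, adjusted p = 0.0323), and Scg2 (secretogranin 2), a protein of secretory granules, gave -1.53 (adjusted p = 0.021). These calls were lost in 3 and 2 of those fits (up to 0.206 and 0.149).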
